A study of Mus musculus with 24 samples.

Results

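The genes of the eosinophil granule proteins were followed through 24 RNA sequencing libraries of eosinophils cultured from mouse marrow. They are 6 genes, Prg2, Prg3, Epx, Ear1, Ear2 and Ear6, taken by symbol from the 25746 Ensembl genes of the count tables. All 6 passed the filter on low counts, which kept 11885 genes. The cells came from C57BL/6 mice and were given SCF and FLT3L, growth factors of early progenitors, at 100 ng/ml until day 4, and after that interleukin-5 (IL-5) at 10 ng/ml. After dead cells had been removed on day 13, they stayed overnight in IL-5, with or without further cytokines. There were 8 groups of 3 libraries: cells labelled CSF2ra-/- with the cytokine GM-CSF at 20 ng/ml or untreated, cells labelled Irf5-/- with GM-CSF or untreated, and wild-type (WT) cells with GM-CSF plus interleukin-10 (IL-10), with GM-CSF, with IL-10 or untreated. The dose of IL-10 is not given in the labels, nor is it said whether the 3 libraries of a group came from separate animals, so the p-values measure only the spread between these libraries. IL-5 was present in every group up to the end of culture.

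Eosinophils store a few strongly basic proteins in their granules and release them to act on parasites and on tissue. Prg2 encodes major basic protein, which forms the crystalline core of the granule, and Prg3 encodes a homologue of it. Epx encodes eosinophil peroxidase, a heme enzyme of the granule matrix that makes oxidants from hydrogen peroxide and halides. Ear1, Ear2 and Ear6 encode eosinophil-associated ribonucleases, the mouse relatives of human eosinophil cationic protein and eosinophil-derived neurotoxin. The granule genes are transcribed mostly while the cell is still a precursor in the bone marrow, under GATA and C/EBP factors, and IL-5 drives that growth. Csf2ra encodes the chain of the GM-CSF receptor that is specific to this cytokine, and Irf5 encodes an interferon regulatory factor.

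Prg2 (ENSMUSG00000027073) lies at chr2:84980461-84983632 on the plus strand of GRCm38, and Prg3 (ENSMUSG00000027072) follows it on the same strand at chr2:84988215-84993886, 4583 bases further on. Their coding sequences were 63.6% identical. Epx (ENSMUSG00000052234) lies at chr11:87864000-87875536 on the minus strand. The ribonuclease genes are on chromosome 14, Ear1 (ENSMUSG00000072601) at chr14:43818765-43875517 on the minus strand, Ear2 (ENSMUSG00000072596) at chr14:44102654-44103534 and Ear6 (ENSMUSG00000062148) at chr14:51853699-51854643, both on the plus strand. The annotation, GENCODE release M21, holds further genes of the family there, among them Ear10, Ear14, Rnase2a and Rnase2b.

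The ribonuclease genes are near copies of one another, which bears on how far their counts can be told apart. The first 90 coding bases of Ear1, Ear2, Ear6 and Ear10, read from the GENCODE transcripts, are shown here from the start codon, with capitals for bases unlike Ear2.
Ear1: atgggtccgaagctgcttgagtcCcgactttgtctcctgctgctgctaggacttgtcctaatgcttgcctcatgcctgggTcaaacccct
Ear2: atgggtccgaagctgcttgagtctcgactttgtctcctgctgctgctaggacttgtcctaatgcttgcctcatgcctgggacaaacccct
Ear6: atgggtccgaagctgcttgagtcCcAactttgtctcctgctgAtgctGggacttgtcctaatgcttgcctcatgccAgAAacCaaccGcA
Ear10: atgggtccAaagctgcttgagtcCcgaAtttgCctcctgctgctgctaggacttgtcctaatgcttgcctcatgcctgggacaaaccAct
Ear1 differed from Ear2 at 2 of these bases, Ear10 at 5 and Ear6 at 10.

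Over the whole coding sequence Ear1 and Ear2 were 95.1% identical, Ear2 and Ear10 97.0%, and Ear6 87.3% to Ear1 and 87.6% to Ear2. Of the 416 stretches of 50 bases in the coding sequence of Ear1, 259 (62.3%) also stood in a transcript of another gene, most often the annotated pseudogene Ear-ps9, and for Ear2 190 of 419 (45.3%) did, most often Ear10. With stretches of 100 bases the shares were 24.6% for Ear1 and 23.3% for Ear2. Ear6, Prg2, Prg3 and Epx had no shared stretch of 50 bases. No source used here says how reads with several matching genes were counted, so the split of counts between Ear1 and Ear2 is uncertain. Untranslated regions were not searched for shared stretches.

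Upstream of their start sites Ear1, Ear2 and Ear10 were alike too, and the 250 bases before each start (RefSeq, GRCm38.p6) are shown because the first 2 genes moved together across the libraries while Ear10 had almost no counts. Capitals again mark bases unlike Ear2.
Ear1, chr14:43819640-43819889, minus strand: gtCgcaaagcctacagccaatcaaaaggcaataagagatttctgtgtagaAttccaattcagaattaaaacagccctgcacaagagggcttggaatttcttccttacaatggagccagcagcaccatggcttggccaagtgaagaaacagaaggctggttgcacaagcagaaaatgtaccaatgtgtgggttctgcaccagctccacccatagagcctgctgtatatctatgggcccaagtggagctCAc
Ear2, chr14:44102404-44102653, plus strand: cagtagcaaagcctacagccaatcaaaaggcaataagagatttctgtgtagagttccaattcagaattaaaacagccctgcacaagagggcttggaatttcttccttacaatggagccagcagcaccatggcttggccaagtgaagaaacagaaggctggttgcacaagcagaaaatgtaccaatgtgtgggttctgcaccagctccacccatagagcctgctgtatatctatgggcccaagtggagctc
Ear10, chr14:43923597-43923846, minus strand: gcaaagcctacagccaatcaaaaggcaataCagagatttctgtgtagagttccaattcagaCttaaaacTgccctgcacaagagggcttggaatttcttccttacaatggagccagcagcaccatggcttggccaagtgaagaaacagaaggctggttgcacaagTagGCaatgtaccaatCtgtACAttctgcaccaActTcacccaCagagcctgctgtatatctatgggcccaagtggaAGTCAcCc
The Ear1 and Ear2 stretches were 97.6% identical, and Ear10 was 91.7% identical to Ear1 and 90.6% to Ear2. All 3 held the C/EBP motif TTGCNNAA (N is any base, both strands searched), at -92 to -85 before the start in Ear1, -90 to -83 in Ear2 and -94 to -87 in Ear10. The motif stood in 9.55% of 27025 RefSeq promoters over the same length. Of the GATA motifs AGATAA and TGATAA, which share their last 5 bases, the second stood in the Prg3 promoter at -123 to -118, as in 8.16% of promoters. Ear6 and Epx held none of the 3 motifs, and 5 of the 6 genes had a promoter entry, Prg2 being the exception.

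The granule genes were among the most abundant transcripts of these cells. Levels are given as CPM, a gene's counts relative to its library's total after TMM scaling between libraries, and per kilobase of exon where genes are compared. Prg2 averaged 44702 CPM over the 24 libraries and ranked 1 of all genes by CPM and by CPM per kilobase, at 53344 CPM per kilobase. On that scale Ear6 ranked 2 (10968), Epx 3 (5846), Ear1 4 (5410), Ear2 5 (3913) and Prg3 14 (1696 CPM per kilobase). Prg2 thus stood far above its neighbour and homologue Prg3, whose level per kilobase was the lowest of the 6.

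Together the 6 genes took between 7.06% and 10.3% of all counts of a library, with a median of 7.72%. Within this sum Prg2 made up 49.9% to 59.5%, Epx 16.1% to 26.5%, Ear6 11.3% to 14.8%, Ear1 3.98% to 5.49%, Ear2 2.65% to 4.39% and Prg3 1.83% to 2.42%. The order of the shares, Prg2 before Epx before Ear6, was the same in all 24 libraries. By group the 6-gene share averaged 8.03 ± 0.296% in CSF2ra-/- cells with GM-CSF, 8.98 ± 1.14% in untreated CSF2ra-/- cells, 7.84 ± 0.541% and 8.68 ± 0.395% in cells labelled Irf5-/- with GM-CSF and untreated, and 7.30 ± 0.143% to 7.80 ± 0.205% in the 4 WT groups (SD, n = 3 each). The library with the highest sum, untreated CSF2ra-/- replicate 1, also had one of the lowest totals, 8637672 counts.

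**Figure D1:**
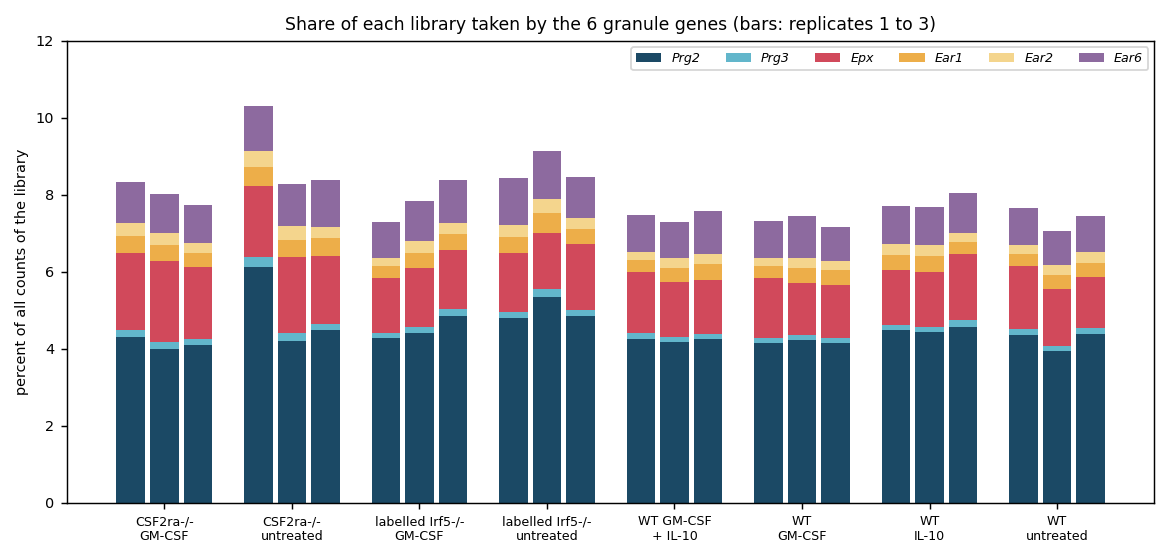
Percent of all counts of each library taken by the 6 granule genes, stacked by gene, 1 bar a library, with the groups along the x axis. The bars run from 7.06% to 10.3%, and untreated CSF2ra-/- replicate 1 is the tallest.

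The eosinophil-associated ribonuclease genes outside the 6 were low. Ear10 had 60 counts in the 24 libraries together, Ear14 had 1 and Rnase2b 4, and these 3 did not pass the filter on low counts. Rnase2a, the gene of another eosinophil ribonuclease, had 1388 counts, between 0.64 and 12.7 CPM. Of the neighbours of Epx, the peroxidase gene Lpo averaged 0.0023 CPM and Mks1, which lies 197 bases from it, 5.26 CPM.

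Several facts of the libraries bear on the comparisons. Total counts lay between 6222979 and 18709153. The eosinophil surface genes Siglecf, Ccr3 and Il5ra were detected in all 24 libraries, at 279 to 453, 182 to 396 and 41.5 to 118 CPM. Markers of other lineages were present as well, such as Ngp of neutrophil precursors at 735 to 1272 CPM. The mast cell and basophil marker Cpa3 stood at 167 to 374 CPM and the stromal and endothelial marker Pecam1 at 399 to 581 CPM. The erythroid gene Hbb-bt reached 119 CPM. Ngp, Cpa3, Pecam1 and Hbb-bt were each the highest gene of their marker list. Others of these lists reached less, such as Ltf at 177, Elane 1.16, Prss34 116, Kit 8.90, Col1a2 15.5, Cdh5 0.79 and Klf1 14.8 CPM. Tpsab1, Mcpt4, Hba-a2 and Lum had 0 counts in all 24 libraries, though other markers of the same lineages were detected. The Csf2ra gene lay at 38.1 to 39.8 and 28.5 to 38.4 CPM in the CSF2ra-/- libraries with GM-CSF and untreated, against 41.8 to 83.8 CPM in the 12 WT libraries, so it was lower but not at 0. Irf5 averaged 1659 ± 310 CPM with GM-CSF and 1679 ± 184 CPM untreated in the libraries labelled Irf5-/-, against 76.3 ± 16.9 and 54.2 ± 6.07 CPM in WT (SD, n = 3 each), which goes against the label. The summed level of 4 Y-linked genes was 148 to 185 CPM in all 6 CSF2ra-/- libraries, whereas it exceeded 100 CPM in 2 of the 6 labelled Irf5-/- and in 6 of the 12 WT libraries. Each WT group and each group labelled Irf5-/- held libraries on both sides of that level, whereas the CSF2ra-/- groups showed no such difference. The Y-linked level does not tell whether the CSF2ra-/- libraries were separate animals or cultures, and the source of their spread was not tested.

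**Figure D2:**
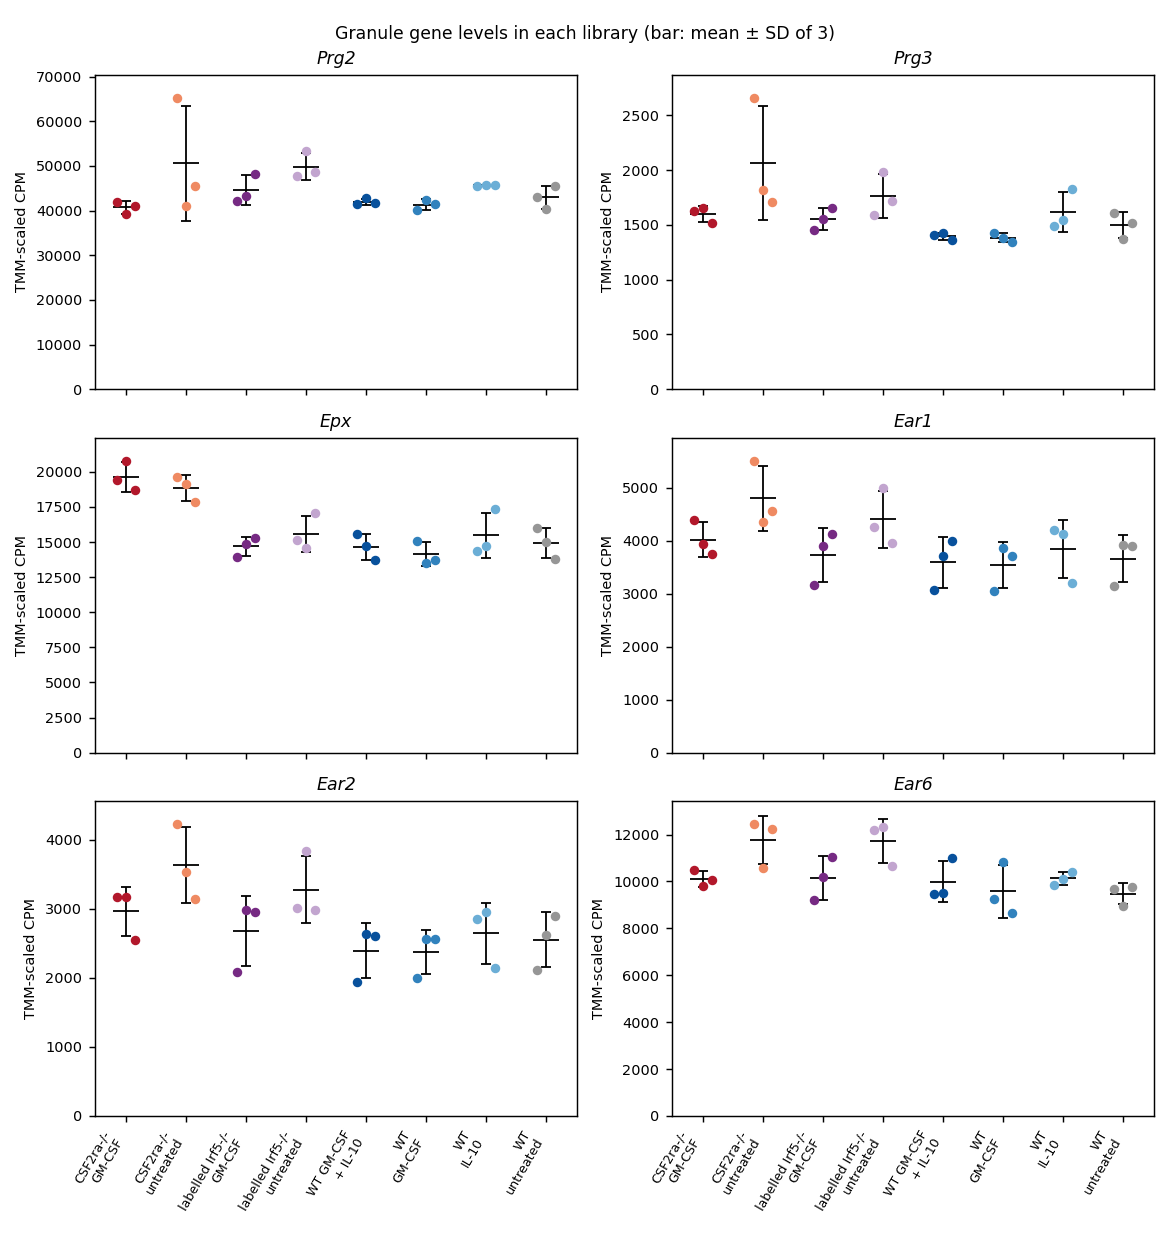
TMM-scaled CPM of the 6 granule genes in the 24 libraries, 1 panel a gene with its y axis from 0, dots for libraries and bars for the mean ± SD of 3. Epx in the 6 CSF2ra-/- libraries (17844 to 20766 CPM) lies above all other libraries (13513 to 17334 CPM), and untreated CSF2ra-/- replicate 1 is highest for Prg2, Prg3, Ear1, Ear2 and Ear6.

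Across the 8 groups each gene stayed within a narrow range. The ratio of the highest to the lowest group mean was 1.24 for Prg2, 1.49 for Prg3, 1.39 for Epx, 1.36 for Ear1, 1.53 for Ear2 and 1.24 for Ear6. Untreated CSF2ra-/- cells had the highest mean of every gene but Epx, though without replicate 1 the Prg2 mean came to 43238 CPM and the Ear6 mean to 11412 CPM, both below untreated cells labelled Irf5-/-. Epx was highest in CSF2ra-/- cells with GM-CSF, at 19632 ± 1042 CPM, followed by untreated CSF2ra-/- cells at 18881 ± 927 CPM (SD, n = 3 each). The other groups followed at 15602 ± 1289 CPM in untreated cells labelled Irf5-/-, 15469 ± 1627 in WT with IL-10, 14937 ± 1090.3 in untreated WT, 14695 ± 698 in cells labelled Irf5-/- with GM-CSF, 14657 ± 922 in WT with both cytokines and 14120 ± 859 CPM in WT with GM-CSF. Only the step between the CSF2ra-/- groups and the untreated group labelled Irf5-/- left a gap between neighbours in this order. For Prg2, untreated CSF2ra-/- cells stood first at 50568 ± 12897 CPM and untreated cells labelled Irf5-/- second at 49859 ± 2934. The next was WT with IL-10 at 45626 ± 92.7 CPM, whose libraries did not overlap those labelled Irf5-/- above them. Below it Prg2 averaged 44586 ± 3265 in cells labelled Irf5-/- with GM-CSF, 42939 ± 2623 in untreated WT, 41933 ± 696 in WT with both cytokines, 41351 ± 1132 in WT with GM-CSF and 40756 ± 1465 CPM in CSF2ra-/- cells with GM-CSF, all overlapping their neighbours.

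For Prg3, untreated CSF2ra-/- cells stood first at 2062 ± 520 CPM, with untreated cells labelled Irf5-/- next at 1762 ± 199 and then WT with IL-10 at 1620 ± 181 CPM. CSF2ra-/- and Irf5-labelled cells with GM-CSF lay in the middle of the order, at 1598 ± 71.1 and 1555 ± 99.9 CPM. Untreated WT at 1501 ± 120, WT with both cytokines at 1398 ± 31.8 and WT with GM-CSF at 1381 ± 40.8 CPM closed it. Ear1 and Ear2 had the same 3 groups at the low end of their order as Prg3, with WT and GM-CSF lowest at 3539 ± 438 and 2376 ± 323 CPM. Ear6 was lowest in untreated WT, at 9474 ± 445 CPM, and its highest means were 11752 ± 1024 in untreated CSF2ra-/- and 11727 ± 919 CPM in untreated cells labelled Irf5-/-. For Prg3, Ear1, Ear2 and Ear6 every pair of neighbours in the order overlapped.

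GM-CSF in WT cells moved none of the granule genes past the test. Prg2 stood at 40173, 42431 and 41450 CPM in the WT libraries with GM-CSF, against 42929, 40320 and 45566 CPM in untreated WT libraries. Epx stood at 15102, 13513 and 13743 CPM with GM-CSF, against 15977, 15032 and 13803 CPM untreated, and Ear6 at 9257, 10840 and 8637 CPM, against 9696, 8961 and 9765 CPM. The groups overlapped for all 6 genes. The log2 fold changes (GM-CSF over untreated) lay between -0.12 (Prg3) and 0.02 (Ear6), with SEs of 0.10 to 0.17 and adjusted p between 0.961 and 0.991 in edgeR's quasi-likelihood test, with no unadjusted p under 0.05 among the 6. Their 95% intervals reached from -0.46 to 0.26, both bounds being those of Ear2. Of all genes tested 0.555% were called, and 12.8% had groups without overlap.

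IL-10 and the pair of cytokines left the calls at 0 of 6 as well. With IL-10 alone against untreated WT cells the 6 log2 fold changes were 0.05 to 0.11, with 0.0505% of all genes called. IL-10 added to GM-CSF gave 0.01 to 0.06 (0.0505% called), GM-CSF added to IL-10 gave -0.21 to -0.02 (0.858% called), and both cytokines against untreated gave -0.10 to 0.08 (1.5% called). The largest of these, Prg3 with both cytokines against IL-10, was -0.21 ± 0.13 with an adjusted p of 0.657 (edgeR). In that comparison Prg2 and Prg3 were lower without overlap, as 17.3% of all genes were higher or lower without overlap. With IL-10 alone Ear6 was the gene without overlap, at 9851, 10125 and 10425 CPM in IL-10 libraries, against 9696, 8961 and 9765 CPM in untreated libraries, where 15.1% of all genes did not overlap. Ribonuclease counts summed over Ear1, Ear2, Ear6 and 4 minor genes, which does not depend on how reads were split among these 7 but leaves out reads given to the pseudogene Ear-ps9, had a log2 fold change of -0.01 ± 0.11 with GM-CSF in WT and 0.09 ± 0.11 with IL-10.

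The highest group mean of each gene was seen in CSF2ra-/- cells, treated or not, though Prg2 also had its lowest group mean there, with GM-CSF (40756 CPM). Untreated, Epx had 19630, 19168 and 17844 CPM in CSF2ra-/- libraries, against 15977, 15032 and 13803 CPM in WT libraries, so all 3 lay above all 3. Prg3 had 2659, 1819.8 and 1707 CPM in CSF2ra-/- libraries, against 1611, 1373 and 1518 CPM in WT libraries, again without overlap. Epx was higher by 0.34 ± 0.10 (log2, adjusted p = 0.0306) and Prg3 by 0.46 ± 0.13 (adjusted p = 0.0276, edgeR). These 2 of the 6 genes were called higher, where 10.8% of all genes were called and 5.52% were called higher.

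The other 4 genes missed the threshold in untreated CSF2ra-/- cells. Ear2 had 4221, 3530 and 3147 CPM in CSF2ra-/- libraries, against 2117, 2625 and 2902 CPM in WT libraries, a log2 fold change of 0.51 ± 0.17 (adjusted p = 0.0593, edgeR). Ear1 had 5503, 4354 and 4559 CPM in CSF2ra-/- libraries, against 3151, 3918 and 3909 CPM in WT libraries. Ear6 had 12433, 10575 and 12249 CPM in CSF2ra-/- libraries, against 9696, 8961 and 9765 CPM in WT libraries. Ear6 differed by 0.31 ± 0.10 (adjusted p = 0.0538), Ear1 by 0.39 ± 0.14 (adjusted p = 0.0767) and Prg2 by 0.24 ± 0.12 (adjusted p = 0.204). Ear1, Ear2 and Ear6 did not overlap between the groups either, so 5 of the 6 genes had all CSF2ra-/- libraries above all WT libraries, as did 10.3% of all genes. Prg2 had 65228, 40974 and 45502 CPM in CSF2ra-/- libraries, against 42929, 40320 and 45566 CPM in WT libraries, and only replicate 1 stood apart. The median log2 fold change of the 6 was 0.37, beside 0.00 over all genes tested. Summed, the ribonuclease counts did pass the threshold, with a log2 fold change of 0.37 ± 0.11 (adjusted p = 0.0320, edgeR). Ear6 was the largest part of the sum, averaging 10365 CPM over the 24 libraries, beside 3949 for Ear1 and 2813 for Ear2. That sum was not recomputed with libraries left out.

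The untreated calls of Prg3 and Epx were lost when some single libraries were left out. The log2 fold change of Epx then stayed between 0.29 and 0.39, and that of Prg3 between 0.24 and 0.58. Calls over all genes, 1288 in the main fit, fell as well, to 359 without untreated CSF2ra-/- replicate 1. Without untreated WT replicate 2 or 3 they fell to 291 or 520. Without untreated CSF2ra-/- replicate 1, the library with the low total, neither gene was called, with Prg3 at 0.24 (adjusted p = 0.225) and Epx at 0.31 (adjusted p = 0.0952), and Prg2 came down to 0.01. Without untreated WT replicate 2 or 3 the adjusted p was 0.151 or 0.0680 for Prg3 and 0.108 or 0.109 for Epx, while without untreated CSF2ra-/- replicate 2 there were 5 calls, Ear2 being the exception. Among libraries with a Y-linked sum over 100 CPM, 3 CSF2ra-/- against 1 WT, the log2 fold changes were 0.35 ± 0.24 for Prg3, 0.24 ± 0.19 for Epx and 0.78 ± 0.26 for Ear2, with 0 calls. With a covariate for Y-linked expression in the fit, Prg3 (adjusted p = 0.0406), Ear1 (0.0312) and Ear2 (0.00907) were called and Epx was not (0.0631).

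With GM-CSF in both genotypes, Epx was the granule gene called higher in CSF2ra-/- than in WT cells. It had 19415, 20766 and 18715 CPM in CSF2ra-/- libraries, against 15102, 13513 and 13743 CPM in WT libraries, a log2 fold change of 0.48 ± 0.10 (adjusted p = 0.00476, edgeR). Prg3 had 1628, 1650.1 and 1517 CPM in CSF2ra-/- libraries, against 1422, 1380.1 and 1340.4 CPM in WT libraries, without overlap as for 8.07% of all genes, at 0.21 ± 0.13 (adjusted p = 0.508, edgeR). Prg2 had 41994, 39139 and 41135 CPM in CSF2ra-/- libraries, against 40173, 42431 and 41450 CPM in WT libraries, at -0.02 ± 0.12. The log2 fold changes of Ear1, Ear2 and Ear6 were 0.19 ± 0.14, 0.32 ± 0.17 and 0.08 ± 0.10, with adjusted p of 0.440 to 0.827 in edgeR, and the summed ribonuclease counts stood at 0.15 ± 0.11. So 1 of 6 genes was called, where 3.79% of all genes were called and 0.909% were called higher. The Epx call held without any 1 of the 6 libraries (adjusted p 0.00751 to 0.0409). It was lost with only these 2 groups in the fit (adjusted p = 0.0908) and among libraries of high Y-linked level, 3 CSF2ra-/- against 2 WT, where the log2 fold change was 0.45 ± 0.15 (adjusted p = 0.375).

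Epx was also the granule gene whose 6 CSF2ra-/- libraries, treated or not, all exceeded the other 18, an arrangement noticed after the values were seen and found for 0.471% of all genes. The balance between the Prg2 and Epx transcripts differed with GM-CSF. Epx then made up 23.9% to 26.5% of the 6-gene counts in CSF2ra-/- libraries, against 18.1% to 21.3% in WT libraries. Counts of Prg2 exceeded those of Epx 1.88-fold to 2.20-fold in CSF2ra-/- libraries with GM-CSF, against 2.66-fold to 3.14-fold in WT libraries with GM-CSF. Untreated, the ratios were 2.14 to 3.32 in CSF2ra-/- libraries, against 2.68 to 3.30 in WT libraries, and overlapped.

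**Figure D3:**
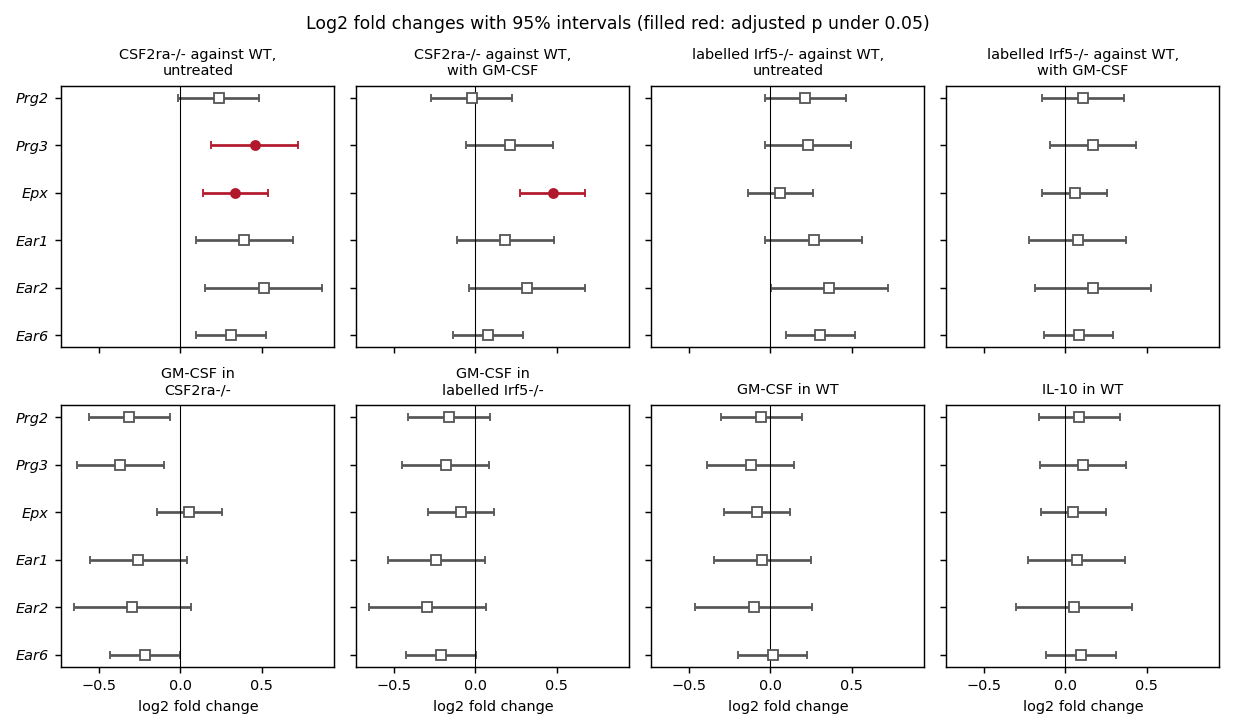
Log2 fold changes of the 6 granule genes with 95% intervals in 8 comparisons (x axis: log2 of the first-named condition over the second, or of treated over untreated). Filled red points are those with an adjusted p under 0.05, namely Prg3 and Epx in untreated CSF2ra-/- against WT and Epx in the same comparison with GM-CSF.

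Within CSF2ra-/- cells, GM-CSF gave no call among the 6 and none among all genes tested (0% called, 531 with an unadjusted p under 0.05). Prg2 stood at -0.31 ± 0.12, Prg3 at -0.37 ± 0.13, Ear1 at -0.26 ± 0.14, Ear2 at -0.29 ± 0.17, Ear6 at -0.22 ± 0.10 and Epx at 0.06 ± 0.10 (log2, GM-CSF over untreated), with adjusted p of 0.999 for each. Prg2, Prg3 and Ear6 had an unadjusted p under 0.05, and Prg3 and Ear6 did not overlap, where 3.92% of all genes did not. Without untreated CSF2ra-/- replicate 1, Prg2 stood at -0.08 and Prg3 at -0.14. The difference between the GM-CSF effects in CSF2ra-/- and WT cells was tested as well and was not called for any of the 6, from -0.26 ± 0.17 for Prg2 to 0.14 ± 0.14 for Epx, where 0.0589% of all genes were called.

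The libraries labelled Irf5-/- gave no call for the granule genes. Untreated, Ear6 had 12185, 12328 and 10669 CPM in libraries labelled Irf5-/-, against 9696, 8961 and 9765 CPM in WT libraries, at 0.31 ± 0.10 (adjusted p = 0.285, edgeR). Prg2 had 47816, 53221 and 48540 CPM in libraries labelled Irf5-/-, against 42929, 40320 and 45566 CPM in WT libraries, at 0.22 ± 0.12 (adjusted p = 0.413). Both lay apart without overlap, as did Ear1 (0.27 ± 0.14) and Ear2 (0.36 ± 0.17), while Prg3 (0.23 ± 0.13) and Epx (0.06 ± 0.10) overlapped. That is 4 of 6 without overlap and all 4 higher, as for 11.4% of all genes, and 0 of 6 called, as 0.0337% of all genes were. With GM-CSF the log2 fold changes were 0.06 to 0.17, with 0 of 6 called against 0.0337% of all genes, and only Prg3 lay apart (3.25% of all genes lay apart and higher). Among libraries of high Y-linked level, 1 labelled Irf5-/- against 2 WT, Epx, Ear1, Ear2 and Ear6 were between -0.13 and -0.041 in that comparison. GM-CSF within cells labelled Irf5-/- gave -0.29 to -0.09 and 0 of 6 called, against 0.353% of all genes. For the difference of this effect from that in WT cells, and for the difference of the GM-CSF effects with and without IL-10, edgeR called 0 genes in all, with 375 and 149 genes at an unadjusted p under 0.05.

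Genes that serve the granule were looked at beside the 6. In untreated CSF2ra-/- cells against WT, 4 of 18 genes of granule packaging and exocytosis were called higher and 1 lower, where 10.8% of all genes were called and 5.52% were called higher. Cd63, a tetraspanin of granule membranes, stood at 1480 ± 428 CPM in CSF2ra-/- cells, against 1024 ± 75.9 CPM in WT cells (log2 0.53 ± 0.14, adjusted p = 0.017). Rab27b, Stx3 and Vamp8, which act in granule docking and membrane fusion, were higher by 0.63, 0.47 and 0.50, and Ap3b1, a subunit of the sorting adaptor AP-3, was lower at -0.36. Among 14 secretory chaperones 3 were called, all higher, Calr at 0.67, Sdf2l1 at 0.68 and Creld2 at 0.52. Calr encodes calreticulin, a chaperone of glycoproteins in the endoplasmic reticulum, and had 3534 ± 425 CPM in CSF2ra-/- cells, against 2216 ± 382 CPM in WT cells. The calls of list genes, here and in the lists below, were not recomputed gene by gene with libraries left out. Without untreated CSF2ra-/- replicate 1, calls over all genes in this comparison fell from 1288 to 359.

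Untreated CSF2ra-/- against WT cells, the comparison kept here, had 10.8% of all genes called and 5.52% called higher. Of 14 transcription factors of the eosinophil lineage, Myb, which marks proliferating precursors, was called higher at 0.42 and Irf8 lower at -1.25. Irf8 was low, at 3.69 CPM in CSF2ra-/- cells, against 8.52 CPM in WT cells. Gata1, Cebpe, Xbp1 and the other 9 were not called. Of a list of 13 genes, other members of the ribonuclease A family and the ribonuclease inhibitor gene Rnh1, 7 were tested and Rnase12 (0.73) and Rnase6 (0.41) were called higher. The median log2 fold change was -0.03 for the packaging list, 0.29 for 8 genes of heme synthesis, which supplies the cofactor of eosinophil peroxidase, 0.14 for chaperones, 0.05 for transcription factors and 0.17 for the ribonuclease family, beside 0.00 over all genes. With GM-CSF the same comparison called 1 gene of the packaging list, Srgn at -0.49, which encodes the granule proteoglycan serglycin, and 1 chaperone, Dnajb9 at -0.44, where 3.79% of all genes were called. It called none of heme synthesis, the transcription factors or the ribonuclease family. Of these lists the WT cytokine comparisons called only the chaperone Pdia4, at 0.45 with both cytokines against untreated.

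Other cells and cycling cells differed between the same groups. Counts of called genes in these lists stand beside 10.8% of all genes called untreated (5.52% higher) and 3.79% with GM-CSF. In untreated CSF2ra-/- against WT cells 13 of 18 cell cycle genes were called higher, led by Tyms (0.91), Rrm2 (0.83), Cdk1 (0.77) and Birc5 (0.76), with summed levels of 1968 to 2708 CPM in CSF2ra-/- libraries, against 1445 to 2004 CPM in WT libraries. With GM-CSF 0 of 18 were called, at 1940.3 to 2571 CPM in CSF2ra-/- libraries, against 1632 to 2042 CPM in WT libraries. Untreated, 9 of 12 monocyte and macrophage markers were lower in CSF2ra-/- cells, led by C1qc (-4.21), C1qb (-3.20) and Mrc1 (-2.91), the summed level being 2074 to 2659.6 CPM in CSF2ra-/- libraries, against 2372 to 2517 CPM in WT libraries. With GM-CSF 3 of the 12 were lower, at 2006 to 2332 CPM in CSF2ra-/- libraries, against 2279 to 2583 CPM in WT libraries. Of this sum Ly6c2 took 1191 to 1915 CPM over the 24 libraries. C1qa was at 0 in 6 of the 24 libraries, and C1qc and Cx3cr1 in 1 each. Of the 12 neutrophil markers 5 were lower untreated, led by Camp (-1.27) and Mmp9 (-1.26), at 1131 to 1348 CPM in CSF2ra-/- libraries, against 1467 to 1642 CPM in WT libraries, and 3 with GM-CSF, at 1105 to 1126 CPM in CSF2ra-/- libraries, against 1338 to 1525 CPM in WT libraries. Of 10 mast cell and basophil markers 7 were tested and Cpa3 was higher untreated (0.62), the sums being 379 to 581 CPM in CSF2ra-/- libraries, against 323 to 405 CPM in WT libraries. Nkg7, of 3 tested among 8 lymphoid markers, was higher untreated (0.71) and with GM-CSF (0.55). The erythroid gene Hbb-bt was higher in CSF2ra-/- cells at 1.84 untreated and 0.90 with GM-CSF, while Hba-a2 was at 0 counts throughout. Untreated, the sum of 7 erythroid markers was 63.2 to 129 CPM in CSF2ra-/- libraries, against 25.1 to 34.9 CPM in WT libraries. Of 8 eosinophil surface and lineage genes, Ccr3 and Alox15 were lower untreated at -0.71 and -0.61, and the sum of the 8 was 2994 to 3314 CPM in CSF2ra-/- libraries, against 3675 to 4693 CPM in WT libraries. With GM-CSF that sum was 3091 to 3246 CPM in CSF2ra-/- libraries, against 3484 to 4032 CPM in WT libraries, with 0 of 8 called. The part of these cells in the granule gene levels was not tested, and in bulk RNA fewer cells of a type and less RNA per cell cannot be told apart.

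The libraries differed within WT groups in a way that crossed the treatments, noticed after the values were seen. In each WT group the library with the lowest number in its title had the lowest Ear1 and Ear2 and the highest Epx. Ear2 stood at 1934, 2003, 2137 and 2117 CPM in these 4 libraries (both cytokines, GM-CSF, IL-10 and untreated), against 2556 to 2954 CPM in the other 8. Ear1 stood at 3043 to 3205 CPM, against 3705 to 4198 CPM, and Epx at 15102 to 17334 CPM, against 13513 to 15032 CPM. Prg2 did not follow, at 40173 to 45690 CPM against 40320 to 45667 CPM. Y-linked sums were 173 to 182 CPM in the 4 and 47.0 to 176 CPM in the other 8, and the labels give no batch or animal to these numbers.

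**Figure D4:**
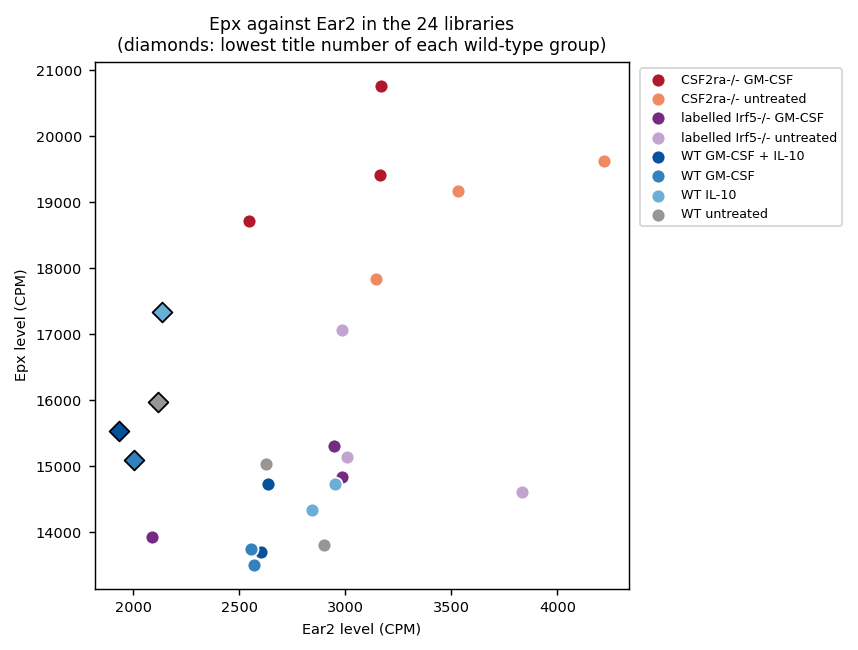
Epx level against Ear2 level (both in CPM) in the 24 libraries, coloured by group, with diamonds for the library of lowest title number in each WT group. The 4 diamonds lie left of and above the other 8 WT libraries, at 1934 to 2137 CPM of Ear2, and the 6 CSF2ra-/- libraries fill the upper part.

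Among themselves the granule genes did not form a single pattern. Over the 24 libraries Pearson's r of log2 CPM was 0.96 between Ear1 and Ear2, which share sequence, and 0.81 between the neighbours Prg2 and Prg3. It was 0.70 between Prg2 and Ear6 but 0.12 between Prg2 and Epx, and 0.29 between Epx and Ear1. The ratio of Ear1 to Ear2 counts stayed between 1.23 and 1.58. These are descriptions of libraries that share groups, and rank correlations were lower for several pairs, such as 0.57 for Prg2 and Prg3.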

How the data were processed

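RNA of 24 libraries was made into strand-specific mRNA libraries, per the labels' protocols. The deposited files hold raw read counts per Ensembl gene, made with STAR and featureCounts. The submitters' processing notes name these tools and GRCm38.p6. Versions, the strand setting and the handling of multiply matching reads: not given in the sources used here. Symbols, coordinates and coding sequences came from GENCODE M21 (GRCm38), and 34 genes had no symbol. Groups followed the labels, and replicate numbers only name libraries. Total counts of 6222979 to 18709153 leave little counting error in the 6 genes, each with at least 9952 counts a library. All 24 pairs of replicates differed by more than sampling noise (chi-square per degree of freedom 3.49 to 66.3).

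Counts were analysed in R 4.3.3 with edgeR 4.0.16: filterByExpr, TMM (factors 0.939 to 1.031), 1 robust quasi-likelihood model of 8 group means, 14 contrasts, and Benjamini-Hochberg adjustment over 11885 genes with calls under 0.05. The common biological coefficient of variation was 14.1%. Intervals of 95% were made from the SE and the total degrees of freedom. On simulated data for GM-CSF in WT (11766 genes), 95% of changes of 1 and 99% of changes of 2 (log2) were recovered, and 5.37% of calls were false. All fold changes of the granule genes were smaller than 1. Recovery of changes of that size was not tested, so these rates do not bear on the granule genes that were not called.

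The 6 genes and the lists were chosen with earlier results of these data known. Named list genes were those called, up to 4 a list by size, and Ap3b1, the packaging gene called lower, beyond that rule, and 2 list genes are not reported here. Likeness was Pearson's r over 9097 genes of at least 5 CPM. Alternatives were DESeq2 1.42.0, limma-voom 3.58.1, other scalings and filters, fits on the groups compared, a Y-linked covariate, and leaving out each library. A fit on libraries of high Y-linked level and a block by title number were chosen after seeing the data.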

Additional observations from a re-analysis of the deposited data

How the results depend on the processing

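The labels state no pairing, but numbers in the library titles run on through the groups. A replicate block from the place of that number in runs of 4, within WT and within libraries labelled Irf5-/-, was chosen after seeing the data. Deviations from group means correlated over 0.1 in 13 of 15 same-place pairs in WT (r from -0.087 to 0.52), and in 9 of 39 other WT pairs. With the block 0 of 6 granule genes were called in the 5 WT cytokine comparisons, GM-CSF in cells labelled Irf5-/- and 2 differences of effects. Over all genes, IL-10 added to GM-CSF called 0 with the block and 6 without, and GM-CSF in cells labelled Irf5-/- 16 and 42. The block leaves fewer libraries to compare. Only 2 pairs of libraries labelled Irf5-/- shared a place, and replicate 2 of WT with GM-CSF shared its place with no other WT library. The WT libraries at place 4 had Y-linked sums of 171, 56.0 and 52.7 CPM. Ear6 for GM-CSF in WT stood at -0.051 with the block. Every cytokine comparison, both comparisons with the libraries labelled Irf5-/- and the 3 differences of effects kept 0 of 6 calls under all alternatives run. The number of granule genes called in untreated CSF2ra-/- against WT cells, 2, became 5 with DESeq2, which called 1643 of all genes, and 0 with only the 2 groups in the fit and among libraries of high Y-linked level, and ranged from 0 to 5 with 1 library left out. With GM-CSF that number, 1, became 0 in both of those smaller fits and was 1 whichever library was left out. Over all genes, untreated CSF2ra-/- against WT called 1288, but 199 with only the 2 groups, 751 with the Y-linked covariate, 35 among libraries of high Y-linked level, and 291 to 2620 with 1 library left out, so the share of 10.8% moves as well. With GM-CSF, 451 became 199, 401 and 130 in those 3 fits and 222 to 436 with 1 library left out. In other comparisons DESeq2 called more genes than edgeR, such as 112 against 66 for GM-CSF in WT and 23 against 4 for untreated cells labelled Irf5-/-. That last comparison called 562 with only its 2 groups in the fit, again with 0 of the 6 granule genes. The smaller fits have fewer libraries, and the cause of the other shifts was not tested.

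Of the 30 fold changes recomputed gene by gene, in 5 comparisons, signs turned for 6, 5 of them between -0.10 and 0.06, the exception being Prg3 in untreated cells labelled Irf5-/- (0.23). For GM-CSF in WT, Ear1 stood at 0.0040 with the Y-linked covariate, at 0.13 among libraries of high Y-linked level and between -0.14 and 0.054 with 1 library left out, Ear2 at 0.11 among libraries of high Y-linked level and between -0.22 and 0.013, and Ear6 between -0.083 and 0.083. Prg2 in CSF2ra-/- against WT with GM-CSF lay between -0.037 and 0.0081 with 1 library left out. In untreated cells labelled Irf5-/- against WT, among libraries of high Y-linked level, Prg3 stood at -0.018 and Epx at -0.079, and Epx lay between -0.0065 and 0.12 with 1 library left out. Of 180 fold changes with 1 library left out 160 kept both direction and side of the threshold, and of 321 under other alternatives 301 did. In the 9 comparisons outside these 5, another 14 of 54 fold changes had the other sign among libraries of high Y-linked level. They lay between -0.15 and 0.17, and between -0.13 and 0.16 among those libraries, and 4 of them were Epx, Ear1, Ear2 and Ear6 in cells labelled Irf5-/- against WT with GM-CSF. The mean of Prg2 in WT with IL-10 became 44860 CPM with library totals in place of TMM, more than its small SD.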

Other observations

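The genes whose levels followed each granule gene most closely over the 24 libraries were sought among 9097 genes of at least 5 CPM. For Epx these were Tm7sf3 (r = 0.91), Cdc25b (0.90) and Fancg (0.88), for Prg3 they were Cd63 (0.88), Pnp (0.88) and Mdh1 (0.86), and for Prg2 Spcs1 (0.85), Arhgdib (0.84) and Snrpb2 (0.83). Ear6 was followed by Atp6v1d (0.88), Myl6 (0.83) and Ppp1r11 (0.83). Ear1 was followed by Gapt (0.84), Becn1 (0.84) and Arhgdib (0.79), and Ear2 by Mapt (0.82), Becn1 (0.81) and Crhbp (0.81). Spearman's rho was as low as 0.47 for Prg2 and Snrpb2. The 24 points share groups and library depth, so these are descriptions.

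Rnase2a, a low-level member of the same ribonuclease family, varied widely within groups. It had 4.23, 0.82 and 12.7 CPM in WT libraries with GM-CSF, against 3.85, 9.30 and 9.72 CPM in untreated WT libraries. In CSF2ra-/- libraries it had 0.81, 1.35 and 0.74 CPM with GM-CSF, against 1.73, 0.82 and 0.65 CPM untreated.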
